A study of Bos taurus with 19 samples.

Results

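The theca interna of bovine ovarian follicles was examined for 9 genes that set whether a cell enters apoptosis: BAX, BAD, BID, BAK1, BCL2L1, MCL1, CASP8, FAS and XIAP. Members were the probe sets of an Affymetrix bovine array whose only gene symbol was one of these names. There were 8 such probe sets among 24127, for 7 of the 9 genes, with XIAP represented by 2 of them. BID, a BH3-only protein that joins the death receptor route to the mitochondrion, and CASP8, the initiator caspase downstream of FAS, were matched to no probe set and were not analysed here.

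The theca interna is the vascular, androgen-producing inner layer of the follicle wall, and it was dissected here from follicles of slaughtered non-pregnant heifers after the granulosa cells had been scraped off. One array was run per follicle, for 5 small atretic follicles, 4 large healthy follicles and 10 small healthy follicles, 5 of them with basal granulosa cells of rounded shape and 5 of columnar shape. Small follicles measured 3 to 5 mm and large ones over 9 mm across, and health or atresia was judged from the histology of the follicle, in which atresia is recognised by dying granulosa cells. Follicles are the replicates, nothing in the sample records says that they came from different animals, and p-values therefore measure the spread between these follicles. By the sample records, RNA was extracted with the RNAqueous Micro kit from atretic follicles, with Trizol and RNeasy from large ones and with RNeasy mini from small healthy ones, and 0.25 µg was labelled for atretic against 2 to 5 µg for healthy follicles. The methods of the study describe a single procedure instead. As recorded, group and RNA preparation cannot be told apart.

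Apoptosis is started either from inside the cell, at the mitochondrion, or from outside, through death receptors. In the mitochondrial route BAX and BAK1 form pores in the outer mitochondrial membrane, BCL2L1 (BCL-XL) and MCL1 hold them back, and BH3-only proteins such as BAD and BID relieve that restraint. In the receptor route FAS recruits the adaptor FADD and CASP8, and XIAP blocks caspases that have been activated in either route. Atresia, the loss of a follicle before ovulation, proceeds through apoptosis of granulosa cells, and the theca is commonly affected later.

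The deposited values are log2 signals, given to 1 decimal, and a difference of 1 on this scale is a 2-fold change. To be tested, a probe set had to exceed a signal of 3 on 50% or more of the arrays from any 1 type of follicle. This limit was met by 6 member probe sets, 1 each for FAS, BAD, BAK1, BAX, BCL2L1 and MCL1. Both XIAP probe sets were under it on all 19 arrays, with a highest signal of 1.5, and could not be tested. Signals of different probe sets are not compared with each other, since each has its own response.

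In small atretic follicles FAS and BAD were higher and BAK1 and BCL2L1 lower than in small healthy follicles, at an adjusted p under 0.05 in limma, while BAX and MCL1 did not pass the test. Thus 4 of the 6 tested members passed, 2 in each direction, and 0 of the 6 changed by 2-fold or more. Of all 15470 probe sets tested in this comparison, 31.9% passed, 16.9% as higher and 15.1% as lower, and 3.68% passed with at least a 2-fold change. The median difference of the 6 members was -0.01 on the log2 scale, beside 0.01 over all probe sets tested. These are whole-tissue samples, in which fewer cells of a type and less RNA per cell cannot be told apart.

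FAS, the death receptor, had log2 signals of 4.0, 3.6, 3.2, 4.2 and 4.5 in small atretic follicles 1 to 5, of 2.6, 2.8, 3.0 and 2.9 in large healthy follicles, and of 2.8 to 3.3 with a median of 3.00 in small healthy follicles. Of the 5 atretic follicles 4 were above every healthy follicle of either size, and atretic follicle 3 lay inside the small healthy range. The mean was 3.90 ± 0.51 in small atretic follicles (SD, n = 5) and 3.07 ± 0.15 in small healthy follicles (SD, n = 10), a difference of 0.83 ± 0.16 (SE) or 1.78-fold, with a 95% interval of 0.49 to 1.17 and an adjusted p of 0.00296 in limma. This was a larger difference, in either direction, than that of 93.9% of the probe sets tested. FAS was over the signal limit on 5 of 5 atretic arrays, 0 of 4 large arrays and 4 of 10 small healthy arrays, so most healthy values lie at or below the limit, none is over 3.3, and the fold is uncertain. The fit assumes 1 spread for both groups. With the wider spread of FAS in the smaller, atretic group, its interval may be too narrow and its p-value too small. With the limit raised to a signal of 4, FAS was not tested at all.

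**Figure D1:**
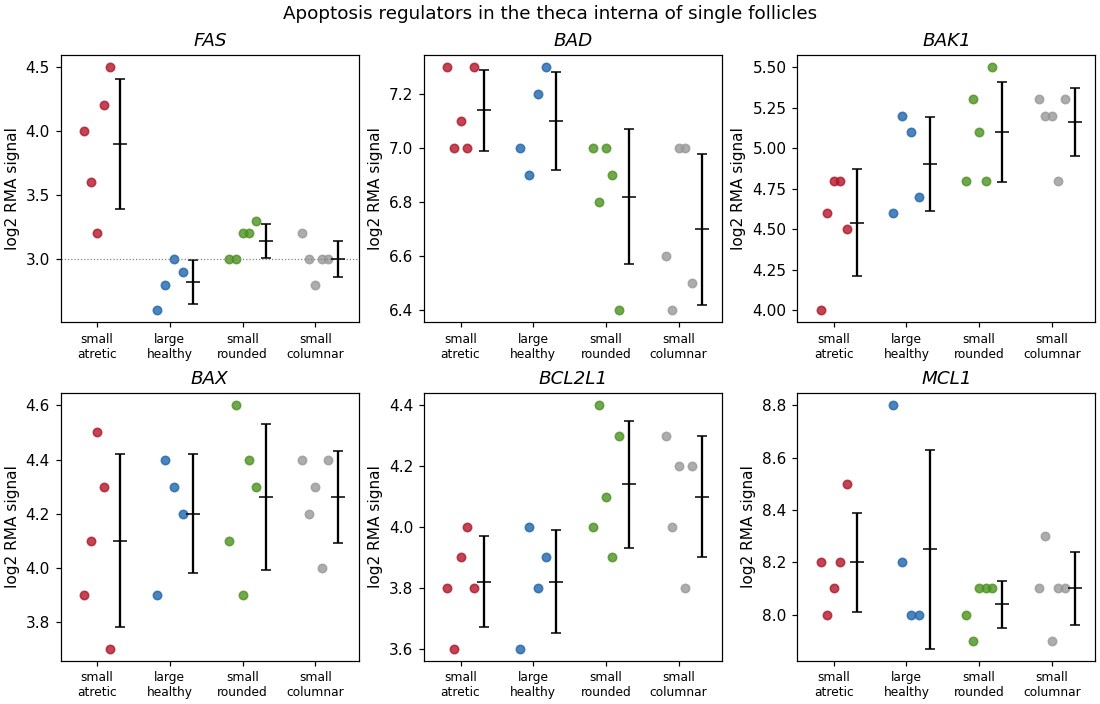
Log2 RMA signal (y axis, a separate scale in each panel) of the 6 tested members in each follicle, by group (x axis). Each dot is 1 follicle, the bar beside the dots is the mean ± SD, and the dotted line in the FAS panel is the signal limit of 3; in that panel 4 of the 5 atretic follicles sit above all healthy ones, while in the other panels the groups overlap.

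BAK1, a pore-forming effector, had signals of 4.0, 4.6, 4.8, 4.8 and 4.5 in the 5 small atretic follicles, against a lowest value of 4.8, a median of 5.20 and a highest value of 5.5 in small healthy follicles. In 3 atretic follicles BAK1 was below all small healthy ones, and the remaining ones, 3 and 4, equalled the lowest. BAK1 averaged 4.54 ± 0.33 in small atretic and 5.13 ± 0.25 in small healthy follicles (SD), a difference of -0.59 ± 0.14 (SE) or 1.51-fold lower, with an interval of -0.89 to -0.29 and an adjusted p of 0.00861 in limma. Of 5 transcripts widely used as references, 2 also fell in the same comparison, PPIA (cyclophilin A) by 0.58 ± 0.12 (SE, adjusted p = 0.00386) and GAPDH by 0.28 ± 0.10 (SE, adjusted p = 0.0386). ACTB at -0.30 (adjusted p = 0.0700), RPS18 at -0.04 and RPLP0 at 0.00 did not pass, and the part of these transcripts in the result for BAK1 was not tested.

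BAX, the other effector, had signals of 3.9, 4.1, 4.5, 4.3 and 3.7 in small atretic follicles and of 3.9 to 4.6 with a median of 4.30 in small healthy follicles. The ranges overlapped, with 1 atretic follicle below the small healthy range. Means were 4.10 ± 0.32 in small atretic and 4.26 ± 0.21 in small healthy follicles (SD), and the difference of -0.16 had an interval of -0.44 to 0.12 and an adjusted p of 0.352 in limma.

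BCL2L1, which restrains both effectors, had signals of 3.8, 3.6, 3.9, 4.0 and 3.8 in small atretic follicles, against 3.8 to 4.4 with a median of 4.15 in small healthy follicles. The groups overlapped, although 6 of 10 small healthy follicles were above all 5 atretic ones and 1 atretic follicle was below all small healthy ones. BCL2L1 averaged 3.82 ± 0.15 in small atretic and 4.12 ± 0.19 in small healthy follicles (SD), and was 1.23-fold lower, with a difference of -0.30 ± 0.10 (SE), an interval of -0.51 to -0.09 and an adjusted p of 0.0335 in limma. This call was the least stable of the 4, and was held in 15 of 25 alternative settings. It was lost with the replicate number as a block (adjusted p = 0.0517), against columnar follicles alone (-0.28, adjusted p = 0.0797), and also without atretic follicle 1, 2 or 5, rounded follicle 2 or 5, or columnar follicle 1 or 5 (adjusted p of 0.0508 to 0.0966).

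MCL1, the second restraining protein, had signals of 8.2, 8.0, 8.1, 8.2 and 8.5 in small atretic follicles and of 7.9 to 8.3 with a median of 8.10 in small healthy follicles. Only atretic follicle 5 was outside the small healthy range. The difference of 0.13 ± 0.08 (SE) had an interval of -0.05 to 0.31 and an adjusted p of 0.239 in limma.

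BAD, the BH3-only protein that binds BCL2L1, had signals of 7.3, 7.0, 7.1, 7.0 and 7.3 in small atretic follicles, against 6.4 to 7.0 with a median of 6.85 in small healthy follicles. In 3 atretic follicles BAD was above all small healthy ones, and 2 equalled the highest of them. BAD averaged 7.14 ± 0.15 in small atretic and 6.76 ± 0.26 in small healthy follicles (SD), a difference of 0.38 ± 0.12 (SE) or 1.30-fold, with an interval of 0.12 to 0.64 and an adjusted p of 0.0289 in limma. The call was lost with the arrays centred on their medians (0.30, adjusted p = 0.0620) and without atretic follicle 1 (adjusted p = 0.0779) or 5 (adjusted p = 0.0817).

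Against the 5 rounded follicles alone the 4 differences were 0.76 for FAS, 0.32 for BAD, -0.56 for BAK1 and -0.32 for BCL2L1, and 0 of them passed (adjusted p of 0.0743, 0.143, 0.0974 and 0.121). In that smaller fit 244 of all probe sets passed. No tested member separated the 5 atretic from the 10 small healthy follicles without overlap, which 3.09% of the probe sets tested did. Small atretic and large healthy follicles were not tested against each other.

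In large healthy follicles 0 of the 6 tested members differed from small healthy follicles at the same threshold in limma, where 3.58% of 15570 probe sets passed. Their median difference was -0.14, beside -0.005 over all probe sets tested. For 3 members the 95% interval did not include 0, although the adjusted p did not pass: BCL2L1 by -0.29 (interval -0.54 to -0.05, adjusted p = 0.134), FAS by -0.25 (interval -0.45 to -0.04, adjusted p = 0.149) and BAD by 0.34 (interval 0.05 to 0.63, adjusted p = 0.156). Such intervals were common, since 3798 of the 15570 probe sets had an unadjusted p under 0.05 in this comparison in limma.

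BCL2L1 had signals of 3.6, 4.0, 3.8 and 3.9 in large follicles, with a mean of 3.82 ± 0.17 (SD), the same mean as in small atretic follicles. BAD had signals of 7.0, 6.9, 7.2 and 7.3 in large follicles (7.10 ± 0.18, SD), and all 5 atretic follicles lay inside that range. Both comparisons share the 10 small healthy follicles, which had the highest mean for BCL2L1 and the lowest for BAD. FAS by contrast was highest by mean in the atretic and lowest in the large follicles (2.82 ± 0.17, SD). No large follicle was over the signal limit for FAS, which entered this comparison only through the rounded follicles, 3 of 5 over the limit. Its difference between large and small healthy follicles ran from -0.31 to -0.09 over the alternative settings, so its size is uncertain near background.

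BAK1 in large follicles, at 4.6, 5.2, 5.1 and 4.7, lay between the other groups by mean (4.90 ± 0.29, SD), with a difference from small healthy follicles of -0.23 (interval -0.54 to 0.08, adjusted p = 0.347 in limma). BAX had signals of 3.9, 4.4, 4.3 and 4.2 in large follicles and a difference of -0.06 (interval -0.32 to 0.20). MCL1 had signals of 8.8, 8.2, 8.0 and 8.0 and a difference of 0.18 (interval -0.09 to 0.45). Large follicle 1 was the highest of all 19 follicles for MCL1, and without it the MCL1 difference was 0.00 and the BAX difference 0.04.

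**Figure D2:**
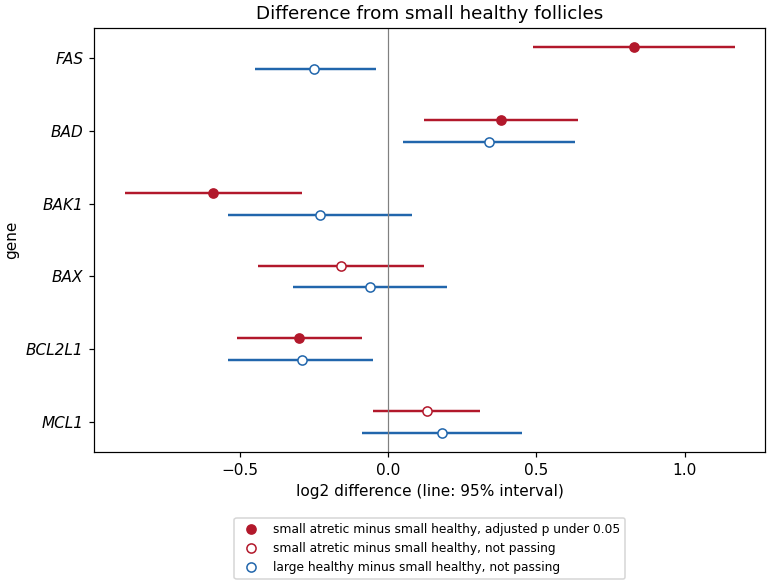
Difference in log2 signal from small healthy follicles (x axis) for each tested member (y axis), with small atretic follicles in red and large healthy follicles in blue. Points are the estimates, lines their 95% intervals, and filled points passed an adjusted p of 0.05. The FAS estimates lie on opposite sides of 0, at 0.83 and -0.25, while those of BAD and BCL2L1 lie close to each other. No large follicle was over the signal limit for FAS.

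Between rounded and columnar small follicles, the 6 differences ran from -0.06 for BAK1 and MCL1 to 0.14 for FAS, with adjusted p-values of 0.996 or above in limma, and 0 of the 6 passed. Over all 15570 probe sets 0.00% passed in this comparison, and 360 had an unadjusted p under 0.05. The 95% intervals of the 6 members all lay within -0.41 and 0.44.

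The members moved together in part across the 19 follicles. BAK1 and BCL2L1 followed each other (Pearson r = 0.77, Spearman rho = 0.86, r = 0.81 without the 2 follicles farthest from the BAK1 median, and 0.69 within groups), and BAK1 and BAX did so as well (r = 0.63, rho = 0.66, 0.61 without 2 follicles, and 0.62 within groups). BAD ran against BAK1 (r = -0.75, rho = -0.79, -0.71 without 2 follicles farthest from the BAD median, and -0.62 within groups). These are 3 of 21 member pairs, described with no test, and the arrays share their normalization. FAS did not follow BAK1 once the group means were removed (r = -0.50 over all follicles and -0.03 within groups).

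Outside the members, the closest pattern among 7227 genes over the 19 arrays was that of UBXN1 for BAD (r = 0.947), POMGNT1 for BAK1 (r = 0.922), RNFT1 for BCL2L1 (r = 0.919), SPHK1 for FAS (r = 0.904), MAFF for MCL1 (r = 0.89) and OXLD1 for BAX (r = 0.858). Being the highest of many, these values are descriptions. Within groups they ranged from 0.713 for FAS and SPHK1 to 0.935 for BAD and UBXN1. The FAS and SPHK1 likeness was lower by rank, at a Spearman rho of 0.63.

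Immune cell markers moved with the atretic group. All 15 tested marker genes of immune cells rose in small atretic follicles, with a median difference of 1.26, beside 16.9% called higher over all probe sets. The signal limit can be met by 1 group alone, so a marker near it could be tested for being high in atretic follicles. CD3D, for example, averaged 3.66 ± 0.46 in small atretic and 2.85 ± 0.18 in small healthy follicles (SD). Among the 15 were CD68 of macrophages (6.66 ± 1.17 in small atretic and 3.96 ± 0.79 in small healthy follicles, adjusted p = 0.00187 in limma), PTPRC (CD45) of leukocytes (difference 1.0, adjusted p = 0.0130) and CD3E of T cells (0.40, adjusted p = 0.0204). The mean log2 signal of the 16 markers with a probe set ranged from 4.31 to 5.56 over small atretic, from 4.01 to 4.86 over large healthy and from 3.21 to 4.29 over small healthy follicles, and 0 of the tested markers fell.

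Within the atretic follicles FAS and this marker mean had the same order. The marker mean was 5.19, 4.65, 4.31, 5.52 and 5.56 in atretic follicles 1 to 5, whose FAS signals were 4.0, 3.6, 3.2, 4.2 and 4.5. In the large follicles, whose marker means reached 4.86, FAS was not over 3.0. Over the 19 follicles with group means removed, the relation to the marker mean was r = 0.44 for FAS, 0.53 for MCL1, 0.11 for BAD, -0.10 for BCL2L1, -0.24 for BAK1 and -0.67 for BAX. To the mean of the steroidogenic genes it was -0.51 for FAS, -0.66 for MCL1, 0.35 for BAD, -0.16 for BCL2L1, -0.18 for BAK1 and 0.40 for BAX. The part of immune cells in the results for the members was not tested.

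**Figure D3:**
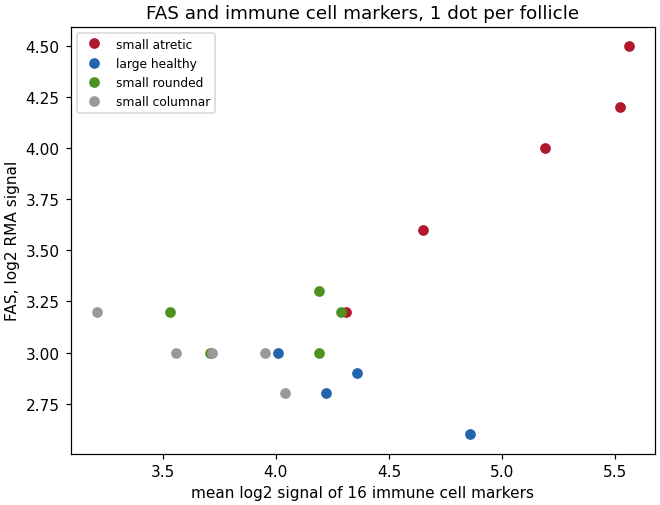
FAS log2 signal (y axis) against the mean log2 signal of 16 immune cell markers (x axis), 1 dot per follicle, coloured by group, with some dots of small follicles coinciding. The 5 atretic follicles climb together, from a marker mean of 4.31 with FAS at 3.2 to 5.56 with FAS at 4.5, while the large follicles stay at or under a FAS signal of 3.0.

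Of 6 smooth muscle genes tested 3 rose, with a median of 0.41 over the 6, beside 16.9% called higher over all probe sets. These were MYH11 by 1.12 (adjusted p = 0.0167), DES by 0.76 (adjusted p = 0.0288) and MYLK by 0.35 (adjusted p = 0.0218, limma). ACTA2 (mean 10.64 in small atretic and 10.68 in small healthy follicles), TAGLN (8.66 and 8.44) and CNN1 (5.80 and 5.33) did not pass. Their array mean was 8.28, 7.47, 8.0, 8.82 and 8.73 in atretic follicles 1 to 5, from 8.17 to 9.30 in large healthy and from 7.20 to 8.47 in small healthy follicles, so that it too was highest, among atretic follicles, in 4 and 5. Of 6 fibroblast genes 1 rose, PDGFRA by 0.81 (adjusted p = 0.0123), and of 7 endothelial genes 0 passed. The part of these cells in the results for the members was not tested.

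Markers of the theca itself were present in every group. INSL3, a hormone of steroidogenic theca cells, averaged 11.64 ± 0.94 in small atretic, 12.22 ± 0.28 in large healthy and 12.0 ± 0.25 in small healthy follicles (SD). CYP17A1, an enzyme of androgen production, averaged 5.86 ± 2.18, 7.45 ± 1.30 and 7.33 ± 0.98 in the same groups (SD). It varied widely among atretic follicles, from 3.0, at the signal limit, to 8.0. Of 7 steroidogenic genes tested by their brightest probe sets, CYP11A1 alone fell (-1.31, adjusted p = 0.00529 in limma) and 0 rose in atretic follicles, although NR5A1 fell by its 2 dimmer probe sets and not by its brightest (-0.45, adjusted p = 0.0509). Their array mean was lowest in atretic follicles 5 and 4, at 6.41 and 7.50, which also had the highest FAS signals. CYP19A1 of granulosa cells was at 1.82 ± 0.13 in small atretic, 3.68 ± 1.61 in large healthy and 2.18 ± 0.63 in small healthy follicles (SD). Its mean was under the signal limit in both small classes. Of brighter granulosa genes, INHBA averaged 5.84, 8.35 and 7.31 in the same groups, AMH 4.94, 5.25 and 5.91, and GATM 6.94, 6.32 and 6.09. Of 6 granulosa genes tested 1 rose and 2 fell in atretic follicles. Over all probe sets 31.9% passed, a share that also stands beside the steroidogenic count. The 3′ minus 5′ signal of control probe sets, a measure of RNA integrity, averaged 2.06 in small atretic, 2.05 in large healthy and 1.86 in small healthy follicles for cyclophilin, 1.14, 1.15 and 1.32 in the same groups for actin, 0.46, 0.50 and 0.45 for GAPDH, and -2.26, -2.38 and -2.41 for EF1A. These 3′ minus 5′ values did not move in 1 direction. The mean signal of 24 poly-A control probe sets was 4.78 ± 0.32 in small atretic, 5.88 ± 0.28 in large healthy and 4.57 ± 0.22 in small healthy follicles (SD). It was 5.63 or more in every large follicle and 5.16 or less in every small one. The part of these controls in the results was not tested.

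Other apoptosis genes were taken from 7 lists. Of 74 genes listed, 49 had a probe set and 36 were tested in small atretic against small healthy follicles, each by its brightest probe set. In limma 13 rose and 5 fell. Counted by probe set, 15 of 54 tested were higher and 6 lower, where 31.9% of all probe sets passed, 16.9% as higher and 15.1% as lower. The median difference of the 36 genes was 0.15, beside 0.01 over all probe sets. In large healthy follicles 38 were tested and 0 passed, with a median difference of 0.11, and 0 of 38 passed between rounded and columnar follicles.

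The list of death receptors and their adaptors also held related receptors and inhibitors of FAS-induced death. It had the most genes tested, 11, of which 6 rose and 2 fell, with a median difference of 0.36. Counted by probe set, 6 of 16 were higher and 2 lower, beside 31.9% called over all probe sets. LTBR, the lymphotoxin beta receptor, had signals of 6.3, 6.2, 5.9, 6.2 and 6.6 in small atretic follicles, against 5.5 to 6.0 in small healthy follicles, and 4 of the 5 atretic follicles lay above that range (difference 0.57 ± 0.11, SE, adjusted p = 0.00323 in limma). TNFRSF1A, the main TNF receptor, rose by 0.40 ± 0.09 (SE, adjusted p = 0.00778), and RIPK1, the kinase recruited to it, by 0.43 ± 0.10 (SE, adjusted p = 0.00651).

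TNFRSF21 (death receptor 6) rose by 0.72 ± 0.22 (SE, adjusted p = 0.0221) and FAIM, an inhibitor of FAS-induced death, by 0.64 ± 0.18 (SE, adjusted p = 0.0149). CFLAR (c-FLIP), which keeps CASP8 from being activated at FAS, rose by 0.36 ± 0.10 (SE, adjusted p = 0.0134) by its brightest probe set only, its other 2 probe sets being at -0.05 and 0.01. DAXX, a FAS-binding protein, fell by 0.37 ± 0.12 (SE, adjusted p = 0.0312) and TNFRSF25 (death receptor 3) by 0.23 ± 0.08 (SE, adjusted p = 0.0464), calls that were lost in 7 and 14 of 25 alternative settings. The other 2 probe sets of TNFRSF25 were at 0.30 and -0.02 and did not pass. FADD, the adaptor that joins FAS to CASP8, did not pass and averaged 5.10 ± 0.16 in small atretic and 5.05 ± 0.11 in small healthy follicles (SD). The FAS ligand, FASLG, was under the signal limit in every group, at 2.20 ± 0.07 in small atretic, 2.22 ± 0.10 in large healthy and 2.28 ± 0.11 in small healthy follicles (SD).

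In the BCL2 family beyond the members, 4 of 13 tested probe sets were higher and 1 lower, beside 31.9% called over all probe sets. By their brightest probe sets, 3 of 7 tested genes rose and 0 fell. These were BNIP3L (0.52 ± 0.15, SE, adjusted p = 0.0164) and BNIP3 (0.46 ± 0.10, SE, adjusted p = 0.00610), mitochondrial proteins also known for their part in mitophagy, and BOK (0.40 ± 0.12, SE, adjusted p = 0.0189), a relative of BAX and BAK1. BNIP3 had a second probe set that rose by 0.27 and another at -0.14 that did not pass. For BCL2L15 a dimmer probe set passed at -0.24 (adjusted p = 0.0466) and the brightest, at -0.16, did not. BCL2 itself averaged 8.70 ± 0.14 in small atretic and 8.99 ± 0.26 in small healthy follicles (SD), a difference of -0.29 with an adjusted p of 0.0756 in limma.

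Downstream of the members, the caspase list held 1 rise and 1 fall among 3 tested genes, beside 31.9% called over all probe sets. CASP4, an inflammatory caspase, rose by 0.33 ± 0.10 (SE, adjusted p = 0.0182) with a second probe set at 0.34, and CASP6, an executioner, fell by 0.29 ± 0.08 (SE, adjusted p = 0.0143). Among 3 genes of mitochondrial release, HTRA2, a protease that antagonises XIAP, rose by 0.39 ± 0.12 (SE, adjusted p = 0.0222) by the brighter of its probe sets, and DIABLO, the other XIAP antagonist, was at -0.18 and did not pass (adjusted p = 0.106). APAF1, the scaffold of the apoptosome, was under the signal limit, at 1.98 ± 0.08 in small atretic and 2.12 ± 0.18 in small healthy follicles (SD).

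BIRC5 (survivin), a member of the inhibitor of apoptosis family that is chiefly known for its role in cell division, had the largest difference of any apoptosis gene tested. Its signals were 4.3, 3.6, 4.9, 4.7 and 4.0 in small atretic follicles, 5.9, 6.9, 6.1 and 4.4 in large healthy follicles, and 5.3 to 7.7 with a median of 7.35 in small healthy follicles. Every atretic follicle was below every small healthy one, a separation that 3.09% of the probe sets tested showed in either direction. Large follicle 4 lay inside the atretic range. The difference from small healthy follicles was -2.50 ± 0.40 (SE) or 5.66-fold lower, with an adjusted p of 0.00155 in limma, and it passed in 25 of 25 alternative settings. It was the only tested apoptosis gene outside the members to pass with at least a 2-fold change, and the only one to pass against rounded follicles alone. Of the other 3 genes tested in that list 0 passed; XAF1, which binds XIAP, was at 0.49 (adjusted p = 0.0964).

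Of 5 tested genes of the execution phase, PARP1, a DNA repair enzyme that executioner caspases cleave, fell by 0.71 ± 0.14 (SE, adjusted p = 0.00334 in limma). It had signals of 7.4, 7.3, 7.6, 7.6 and 7.0 in small atretic follicles against 7.8 to 8.4 in small healthy follicles. These did not overlap, which was so for 3.09% of the probe sets tested. DFFB, the nuclease that cuts DNA in apoptotic cells, rose by 0.39 ± 0.09 (SE, adjusted p = 0.00743) by its brighter probe set, its other being at 0.07. Of 3 tested genes linked to p53, TP53INP1 rose by 0.79 ± 0.25 (SE, adjusted p = 0.0264), by a probe set of a kind that can bind several transcripts, and CDKN1A, the cell cycle inhibitor p21, was at 0.34 and did not pass (adjusted p = 0.0550).

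**Figure D4:**
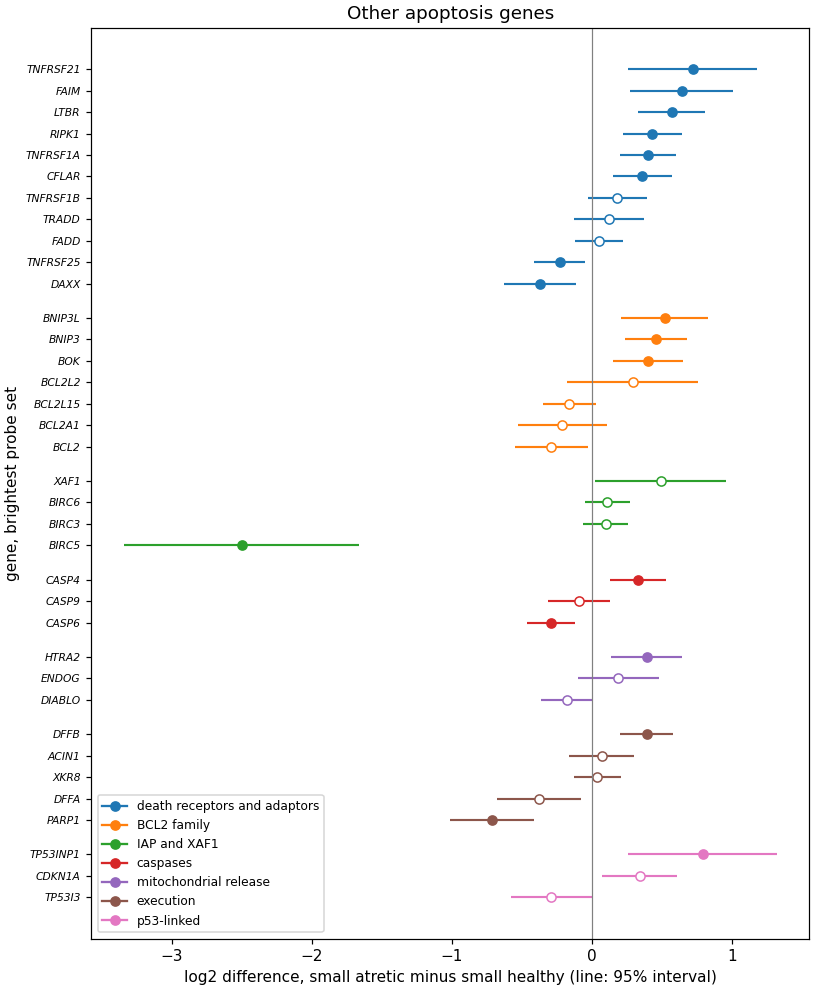
Difference in log2 signal, small atretic minus small healthy follicles (x axis), of the 36 other apoptosis genes tested (y axis, brightest probe set of each), coloured by list. Points are the estimates, lines their 95% intervals, and filled points passed an adjusted p of 0.05; 13 filled points lie right of 0 and 5 left of it, with BIRC5 far from the rest at -2.50.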

How the data were processed

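Groups and replicate numbers came from the sample records. The deposited values are log2 signals per probe set, which the authors made from the scanned arrays by RMA with quantile normalization in Partek (version 6.5 by the submitters' processing notes), rounded to 1 decimal. Array medians were 3.8 to 3.9. Of 24127 probe sets, 13317 had 1 gene symbol, for 9156 genes, and 111 array controls were left out. Against a newer gene table, 0 of the 13282 symbols found there had changed.

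Probe sets exceeding a log2 signal of 3 on 50% or more of the arrays from any 1 type of follicle were fitted in limma 3.58.1 (R 4.3.3) by lmFit and eBayes, and p-values were adjusted by Benjamini-Hochberg over every probe set tested. Small atretic and large healthy follicles were each compared with the 10 small healthy follicles, and rounded were compared with columnar follicles within 1 model of the 3 healthy groups. A probe set passed at an adjusted p under 0.05. The 2 comparisons with small healthy follicles share those follicles. Each fit was tested on simulated data with independent values, the spread of small healthy follicles in every group, and changes planted in brighter probe sets only. That check of the code does not cover the wider spread of some atretic values or faint probe sets such as that of FAS. Precision is limited by the number of arrays, since there is no read depth: the median 95% interval extended 0.24 to either side of a log2 difference for atretic, 0.27 for large and 0.29 for rounded follicles.

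The members and gene lists were chosen with earlier results of these data known. Genes named are all members, the genes of the other apoptosis lists that passed in atretic follicles or, where fewer than 2 did, the 2 with the smallest p, the gene most like each member, and marker and reference genes. BCL2, FADD, FASLG, APAF1, CIDEB, MDM2, CD3E, CD3D, CYP11A1, NR5A1, INHBA, AMH, GATM, MYH11, DES, MYLK, ACTA2, TAGLN, CNN1, PDGFRA, ACTB, RPS18, RPLP0 and the choice of member pairs were added after their values were seen. The alternatives varied the filter, the scaling, the test, array weights, the control follicles, the replicate block and the follicles included.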

Additional observations from a re-analysis of the deposited data

Results flagged for a closer look

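Single follicles far from the rest of their group were looked for in 32 sets of 4 or 5 values of the member probe sets, where chance gives about 1 in 20, and 2 were found. BAK1 in small columnar follicle 4 was at 4.8, below the other columnar follicles at 5.2 to 5.3. That value, the lowest among small healthy follicles, was also found in atretic follicles 3 and 4 and in rounded follicles 1 and 4. One XIAP probe set was at 1.2 in large follicle 1 and at 1.1 in the other 3, a difference of 1 step of the deposited rounding and under the signal limit.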

How the results depend on the processing

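In small atretic against small healthy follicles the 6 tested members kept their direction in every alternative, except that FAS had no value with the signal limit at 4. Against rounded follicles alone the counts that passed were 244 of all probe sets (4939 otherwise), 0 members (4) and 1 other apoptosis gene (18), and with at least a 2-fold change required they were 569, 0 and 1. Leaving out 1 follicle at a time gave 2978 to 5690 probe sets, 2 to 4 members and 12 to 19 other apoptosis genes. The lowest were 2978 probe sets without atretic follicle 5 and 2 members without atretic follicle 1 or 5. In large against small healthy follicles 557 probe sets passed, against 339 in an ordinary linear model, 1078 with array weights, 341 with the replicate block, 18 against rounded and 258 against columnar follicles alone, 110 with at least a 2-fold change, and 154 to 982 with 1 follicle left out. The lowest was without large follicle 4 and the highest without rounded follicle 1, and the counts were 328 without large follicle 2, 240 without large follicle 3, 334 without rounded follicle 4, 300 without columnar follicle 1 and 298 without columnar follicle 2. The cause was not tested. There 0 members passed throughout, and of the other apoptosis genes 1 passed, in place of 0, with no filter (MDM2, 0.43), in a fit of all 4 groups (CIDEB, 0.38) and with array weights (CIDEB, 0.36), and 0 to 1 with 1 follicle left out. With 1 follicle left out the BAX difference was -0.13 to 0.04 and that of MCL1 0.00 to 0.26, at 0.04 and 0.00 without large follicle 1. Rounded and columnar follicles gave 0 calls in every alternative. Replicate numbers were shared by groups, and whether they pair the follicles is not known. Deviations from group means correlated at a median r of 0.03 over 27 same-numbered pairs, -0.34 to 0.57, and 0 over 108 others, -0.67 to 0.51. With ranges this wide, these values cannot show whether follicles shared an animal or a batch. With the number as a block the atretic comparison lost the call for BCL2L1 (-0.30, adjusted p = 0.0517 in limma), and the other 3 member calls held. Members under or near a signal of 3, both XIAP probe sets and healthy FAS, are limited by background.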
